A study of Mus musculus with 4 samples.

Results

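Of 22258 barcodes kept as cells from 4 libraries of sorted mouse lung macrophages, 57 were T-lineage cells with UMIs of genes that mark developing thymocytes. All 57 came from the library of wildtype mice at 16 weeks. A UMI, or unique molecular identifier, stands for 1 captured RNA molecule. The 57 members were chosen by a rule on their own counts. Their barcodes had 1000 or more UMIs and 500 or more genes, with no more than 10% of the UMIs mitochondrial. They held at least 4 UMIs in sum of Cd3d, Cd3e, Cd3g, Trac, Trbc1 and Trbc2, under 5 of C1qa, C1qb and C1qc, and under 0.4% of UMIs from the alveolar macrophage genes Chil3, Ear1, Ear2, Fabp1, Lpl and Plet1. The last condition was at least 1 UMI of Rag1, Rag2, Ptcra, Dntt or Arpp21. The other 229 T-lineage cells met every condition but the last, and serve here as the comparison. Values of the genes in the rule are a description of how the members were picked and support nothing else.

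The study set MMTV-HER2 mice beside wildtype FVB mice, all female, at 16 weeks (early) and at 32 weeks (late). In MMTV-HER2 mice the HER2 oncogene is driven by the mouse mammary tumour virus promoter, which is active mainly in mammary epithelium. The lungs of each group were digested with collagenase, stained and sorted for macrophages, and 1 droplet library of 3′ RNA ends was made per group. The groups are called here wildtype or HER2, each early or late. The strain label lists both genotypes for every sample, so the groups rest on the sample titles, and the protocol describes the late mice as females with palpable tumours without separating the genotypes. The number of mice per library and the antibodies of the sort are not given in the sources used here. With 1 library per group no difference between groups has a replicate check, no test was made, and all intervals are 95% intervals that cover counting error only.

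Thymocytes are T cells that are still maturing, normally in the thymus, and mature T cells leave that organ for blood, lymph nodes and tissues such as the lung. On the way they cut and rejoin the segments of their receptor genes with the Rag1 and Rag2 recombinase, first for the beta chain, which is tested with the pre-T alpha chain Ptcra, and later for the alpha chain. Between these steps the cells divide, and they then carry the coreceptors Cd4 and Cd8 together, the double-positive stage. Cells that pass selection keep a single coreceptor and switch on genes for survival and for leaving the thymus.

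The 5 thymocyte genes of the rule are named here with their place in the genome (GRCm38, GENCODE vM21, protein-coding genes). The 250 bases before the RefSeq start of the gene are shown for Rag1, Ptcra and Dntt, 3 genes of the rule with parts in receptor rearrangement. For Rag1 the RefSeq start lies upstream of the GENCODE start. Rag1 and Rag2, the paired subunits of the recombinase, lie side by side on chromosome 2 (chr2:101638282-101649501, minus strand, and chr2:101624718-101632529, plus strand). Ptcra lies at chr17:46755663-46763712 on the minus strand. Dntt, the terminal transferase that adds untemplated bases at the joints, lies at chr19:41029275-41059525 on the plus strand. Arpp21, a cAMP-regulated phosphoprotein known from brain and from thymocytes, lies at chr9:112065091-112235938 on the minus strand. The sequences are from RefSeq (GRCm38.p6), each 5′ to 3′ on the strand of its gene, from chr2:101649533-101649782 (minus strand), chr17:46763713-46763962 (minus strand) and chr19:41029025-41029274 (plus strand). Capitals mark matches, on either strand, to 4 short words, namely CAGCTG and CAGGTG (E box words), CTTTGA (a word of the Tcf7 and Lef1 type) and TGTGGT (a word of the Runx type).
Rag1: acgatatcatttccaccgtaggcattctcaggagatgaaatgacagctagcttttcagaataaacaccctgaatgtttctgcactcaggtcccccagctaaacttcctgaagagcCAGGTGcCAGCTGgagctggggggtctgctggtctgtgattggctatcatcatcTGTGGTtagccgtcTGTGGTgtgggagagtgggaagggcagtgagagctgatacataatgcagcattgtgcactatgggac
Ptcra: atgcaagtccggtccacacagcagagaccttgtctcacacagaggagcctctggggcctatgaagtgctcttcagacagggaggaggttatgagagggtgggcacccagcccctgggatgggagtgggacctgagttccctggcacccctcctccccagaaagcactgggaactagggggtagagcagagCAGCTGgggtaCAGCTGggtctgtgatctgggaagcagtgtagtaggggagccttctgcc
Dntt: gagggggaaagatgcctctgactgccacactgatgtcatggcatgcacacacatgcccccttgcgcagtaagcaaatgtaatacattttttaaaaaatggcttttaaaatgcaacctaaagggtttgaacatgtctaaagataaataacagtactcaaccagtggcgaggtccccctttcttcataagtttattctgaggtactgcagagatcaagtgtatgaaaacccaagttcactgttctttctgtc
The Rag1 stretch held CAGGTG and CAGCTG side by side and TGTGGT at a pair of places, and the Ptcra stretch held CAGCTG at a pair of places. The Dntt, Rag2 and Cd8a stretches held none of the 4 words. Of 32817 RefSeq promoters of the same length, CAGCTG was in 13.0%, CAGGTG in 17.2%, CTTTGA in 13.8% and TGTGGT in 14.0%, so a match describes the letters and not a site in use.

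Rag1 gave 250 UMIs in 49 of the 57 members, and Rag2 gave 22 UMIs in 16. Dntt gave 261 UMIs in 50 members and Arpp21 gave 137 in 46. Ptcra was sparse, with 11 UMIs in 7 members. The members were thus mostly picked by more than 1 of the genes, with 53 holding at least 2 of the 5 and 42 holding at least 3. The sum over the 5 genes ran from 1 to 34 UMIs per member with a median of 10, and 52 members had 5 or more, while 2 members stood at the limit with 1 UMI. The T receptor sum ran from 6 to 192 UMIs with a median of 41, all above the limit of 4.

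The members made up 1.05% of the 5449 kept barcodes of wildtype early (0.793 to 1.35%) and 57 of its 149 T-lineage cells, or 38.3% (30.4 to 46.6%). The other libraries held none. HER2 early had 0 members among 61 T-lineage cells, with an exact interval up to 5.87%. Wildtype late had 0 of 48, with an interval up to 7.40%, and HER2 late had 0 of 28, with an interval up to 12.3%. The simpler limit of 3 counts gives 4.92%, 6.25% and 10.7%. Of all kept barcodes, that limit of 3 counts allows up to 0.0585% in HER2 early and in wildtype late, and up to 0.0458% in HER2 late. Wildtype early also held the highest share of T-lineage cells, 2.73% of kept barcodes (2.32 to 3.20%), against 1.19% for HER2 early, 0.936% for wildtype late and 0.427% for HER2 late. The sort was for macrophages, so the gate can set these shares, and library, mice, genotype and age cannot be told apart here.

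**Figure D1:**
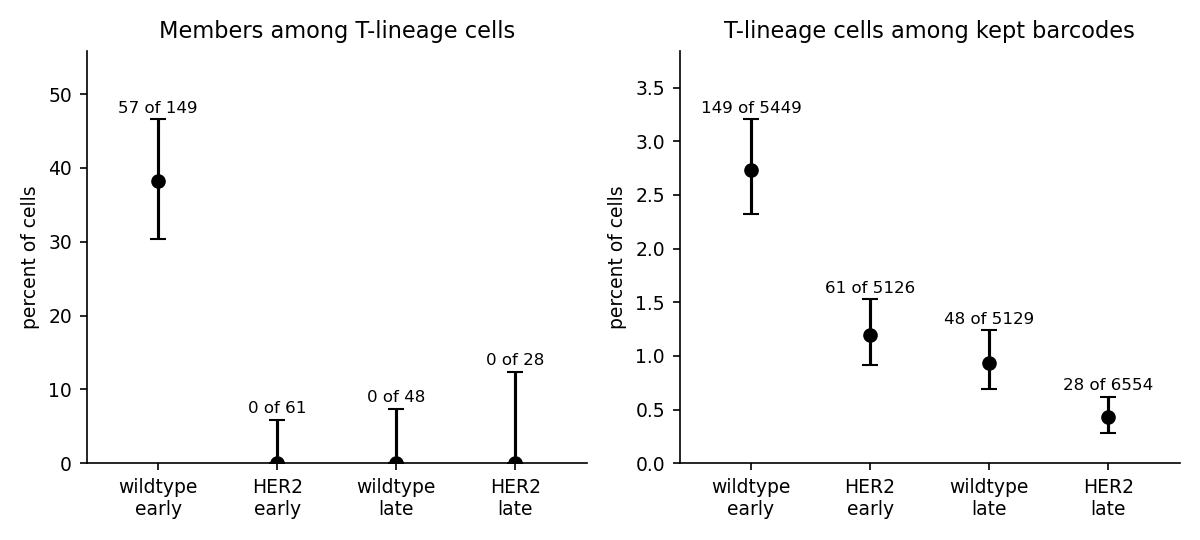
Share of members among T-lineage cells (left) and of T-lineage cells among kept barcodes (right) in the 4 libraries, in percent of cells, with exact binomial 95% intervals. Only wildtype early held members, 57 of 149 T-lineage cells, and the 3 other libraries stood at 0 of 61, 0 of 48 and 0 of 28.

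The libraries held 28786682 to 39228655 UMIs, with a median of 3801 to 4478 UMIs per kept barcode. The members held 282857 UMIs, between 1027 and 21626 each with a median of 3007, and a median of 1297 genes. The other 92 T-lineage cells of wildtype early held 434076 UMIs with a median of 3229 UMIs and 1340 genes, so depth was close in the pair of groups. The median mitochondrial share was 4.89% in members and 4.81% in the other T-lineage cells. Between 17 and 29 kept barcodes per library had a sequence that occurs in another library too, and 0 members were among them. A doublet caller (Scrublet) marked 0 to 2 barcodes per library and so did not work, and 0 members had a doublet score above 0.25.

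The edges of the rule matter for the count. In wildtype early 210 kept barcodes had a UMI of the 5 thymocyte genes, against 5 for HER2 early, 9 for wildtype late and 6 for HER2 late. Of these, 92 in wildtype early failed only the C1q limit and 13 failed only the macrophage limit, while 0 failed only the T receptor limit. A further 30 barcodes failed only the mitochondrial limit, and 9 held at least 500 but under 1000 UMIs. The 57 members held at most 4 C1q UMIs, 50 of them 0, whereas the 92 barcodes outside held 5 to 233 with a median of 53, and 6 of them under 10. The macrophage genes took at most 0.207% of a member's UMIs, and 0.412 to 2.16% in the 13 barcodes outside. In all, 115 of the 210 barcodes exceeded the limit on C1q, the complement genes that mark interstitial macrophages.

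The 92 barcodes with C1q also held T cell and thymocyte RNA, with the T receptor and thymocyte genes of the rule at lower summed levels than in the members. They held a median of 9 thymocyte UMIs and 29 T receptor UMIs, at a median depth of 7028 UMIs, and Rag1 was found in 78 of the 92. UMIs of both Cd4 and Cd8a were found in 65 of the 92 (70.7%). Scaled to CPM, that is UMIs per 1000000 UMIs of the group, the T receptor genes stood at 4665 CPM against 10182 CPM in the members and the 5 thymocyte genes at 1334 against 2408 CPM. With every cell thinned to 1000 UMIs, Rag1 was found in 39.1% of the 92 against 63.2% of the members, Dntt in 26.1 against 56.1%, and Cd4 with Cd8a in 10.9 against 28.1%. Thinned to 2000 UMIs, 91 of the 92 and 34 members were deep enough. Rag1 was then found in 64.8 against 64.7%, Dntt in 44.0 against 82.4%, and Cd4 with Cd8a in 28.6 against 26.5%. In the 92 barcodes the summed level of 7 general myeloid genes was 14090 CPM, between 5908 CPM in the members and 32220 CPM in 158 C1q cells of the same library without T receptor UMIs. Whether these barcodes hold more than 1 cell was not tested. Free RNA in the suspension was read from barcodes with 10 to 100 UMIs, where the 5 thymocyte genes stood at 92.7 CPM in wildtype early (110 UMIs), 12.3 CPM in HER2 early (10 UMIs), 5.34 CPM in wildtype late (10 UMIs) and, in HER2 late, at 0. In the members they stood at 2408 CPM. Of 1060 barcodes with over 2% macrophage gene UMIs and no T receptor UMI in wildtype early, at a median of 4930 UMIs, 8 had a thymocyte UMI (0.755%, 0.326 to 1.48%), with 1 UMI each. The 2 members with a single thymocyte UMI are not separated from that background by this gene set.

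The label was checked against Satb1, Cd4 and Cd8a, thymocyte markers that the rule did not use. The markers Rag1, Rag2 and Ptcra are part of the rule and check nothing. Satb1, a chromatin organiser of developing T cells, was in all 57 members with 408 UMIs. Its level was 1442 CPM in members and 922 CPM in the other T-lineage cells of wildtype early, against 250 CPM in T-lineage cells of HER2 early, 233 CPM in wildtype late and 162 CPM in HER2 late. The difference within wildtype early was 0.65 on the log2 scale (0.44 to 0.85), under 2-fold. The coreceptors set the members apart more clearly. Cd8a stood at 834 CPM in members (236 UMIs in 53 cells), 122 CPM in the other T-lineage cells, and 38.2, 58.2 and 46.2 CPM in T-lineage cells of HER2 early, wildtype late and HER2 late. Its partner Cd8b1 was at 1085 CPM in members (307 UMIs in 56 cells) and 129 CPM in the other T-lineage cells, with 62.4, 84.0 and 92.5 CPM in the other libraries. Cd4 was at 251 CPM in members (71 UMIs in 38 cells), against 96.8, 62.4, 136 and 34.7 CPM in the same order of groups. The log2 ratio to the other T-lineage cells of wildtype early was 2.77 for Cd8a (2.34 to 3.23), 3.07 for Cd8b1 (2.66 to 3.51) and 1.38 for Cd4 (0.80 to 1.96). For Cd8a and Cd8b1 no T-lineage group came near the members, whereas for Cd4 the gap to wildtype late was the smallest and under 2-fold.

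Coreceptors were also read cell by cell. Of the 57 members, 36 held UMIs of both Cd4 and Cd8a (63.2%, 49.3 to 75.6%), against 1 of the 92 other T-lineage cells of wildtype early (1.09%, 0.0275 to 5.91%). Counting Cd8a and Cd8b1 as Cd8, 38 members held Cd4 and Cd8, 19 held Cd8 alone, 0 held Cd4 alone and 0 held neither. In the other 92 cells the same classes were 3, 20, 26 and 43. Cd4 and Cd8 were found together in 0 of 61 T-lineage cells of HER2 early, 2 of 48 of wildtype late and 1 of 28 of HER2 late. Joint detection was thus common in members and rare in the other T-lineage cells of these libraries. Thinned to 1000 UMIs per cell, the expected share with both Cd4 and Cd8a was 25.9% in members and 0.523% in the other T-lineage cells of wildtype early. Macrophage barcodes, which should lack Cd8a, held both in 0 of 1060. Cd4 gave 71 UMIs over the 57 members, so a member with Cd8 UMIs alone is not shown to lack Cd4.

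**Figure D2:**
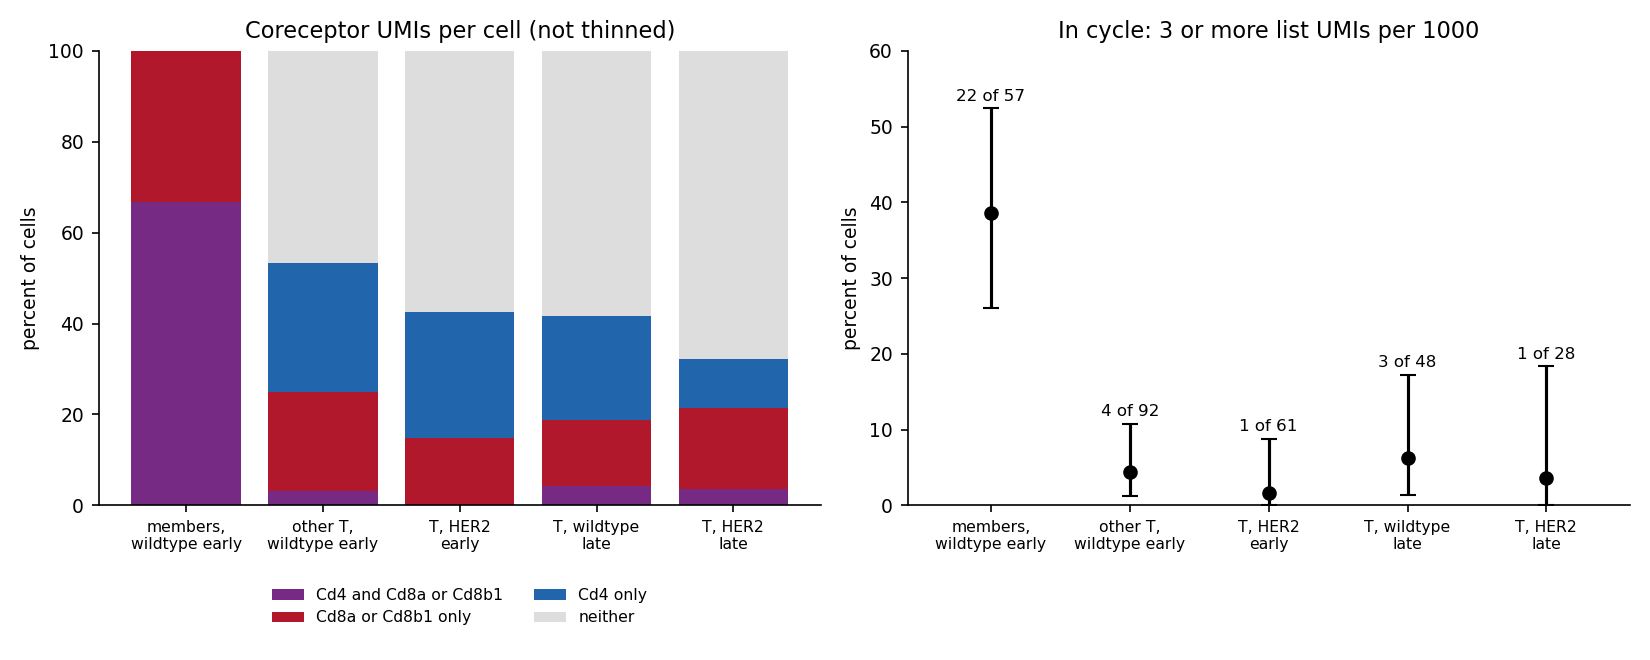
Left, percent of cells with UMIs of Cd4 together with Cd8a or Cd8b1, of Cd8 alone, of Cd4 alone or of neither, at full depth, in members and the 4 groups of other T-lineage cells. Right, percent of cells with at least 3 cell cycle list UMIs after thinning to 1000 UMIs, with exact binomial 95% intervals. All 57 members held Cd8, 38 of them with Cd4, and 22 of 57 were in cycle against 4 of 92, 1 of 61, 3 of 48 and 1 of 28.

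The chains of the T cell receptor were measured at their constant genes. Trbc1 and Trbc2, the constant genes of the beta chain, summed to 7859 CPM in members (7536 to 8193), against 3251 CPM in the other T-lineage cells of wildtype early and 1710, 1622 and 1144 CPM in T-lineage cells of HER2 early, wildtype late and HER2 late. Trac, the constant gene of the alpha chain (chr14:54220521-54224206), went the other way, with 73 UMIs in 34 members and 258 CPM (202 to 325), against 604, 350, 291 and 237 CPM in the same order. Beta chain RNA was thus high and alpha chain RNA low in members beside the other T-lineage cells of their own library, but for Trac the members did not differ from wildtype late and HER2 late by more than counting error. Without the cells in cycle of both groups, described below, the log2 ratio of Trac within wildtype early was -0.36 (-0.79 to 0.05). These 3 genes were part of the T receptor limit that every T-lineage cell had to pass. Trdc, the constant gene of the delta chain (chr14:54142851-54148868), was not in the rule. It lies inside the alpha chain locus. Trdc gave 77 UMIs in 18 members, or 272 CPM (215 to 340), against 4 UMIs in 1 of the other 92 cells (9.22 CPM) and 38.2, 51.7 and 5.78 CPM in the other libraries. The log2 ratio within wildtype early was 4.89 (3.47 to 6.80). Gamma chain genes were near absent, with 2 UMIs in 1 member against 26 UMIs in 7 of the other cells. The last 300 transcribed bases of Trdc share 207 identical bases with Trdv5, so reads of that pair may be split between them. The CD3 genes Cd3d, Cd3e and Cd3g summed to 2065 CPM in members and 2161 CPM in the other T-lineage cells.

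**Figure D3:**
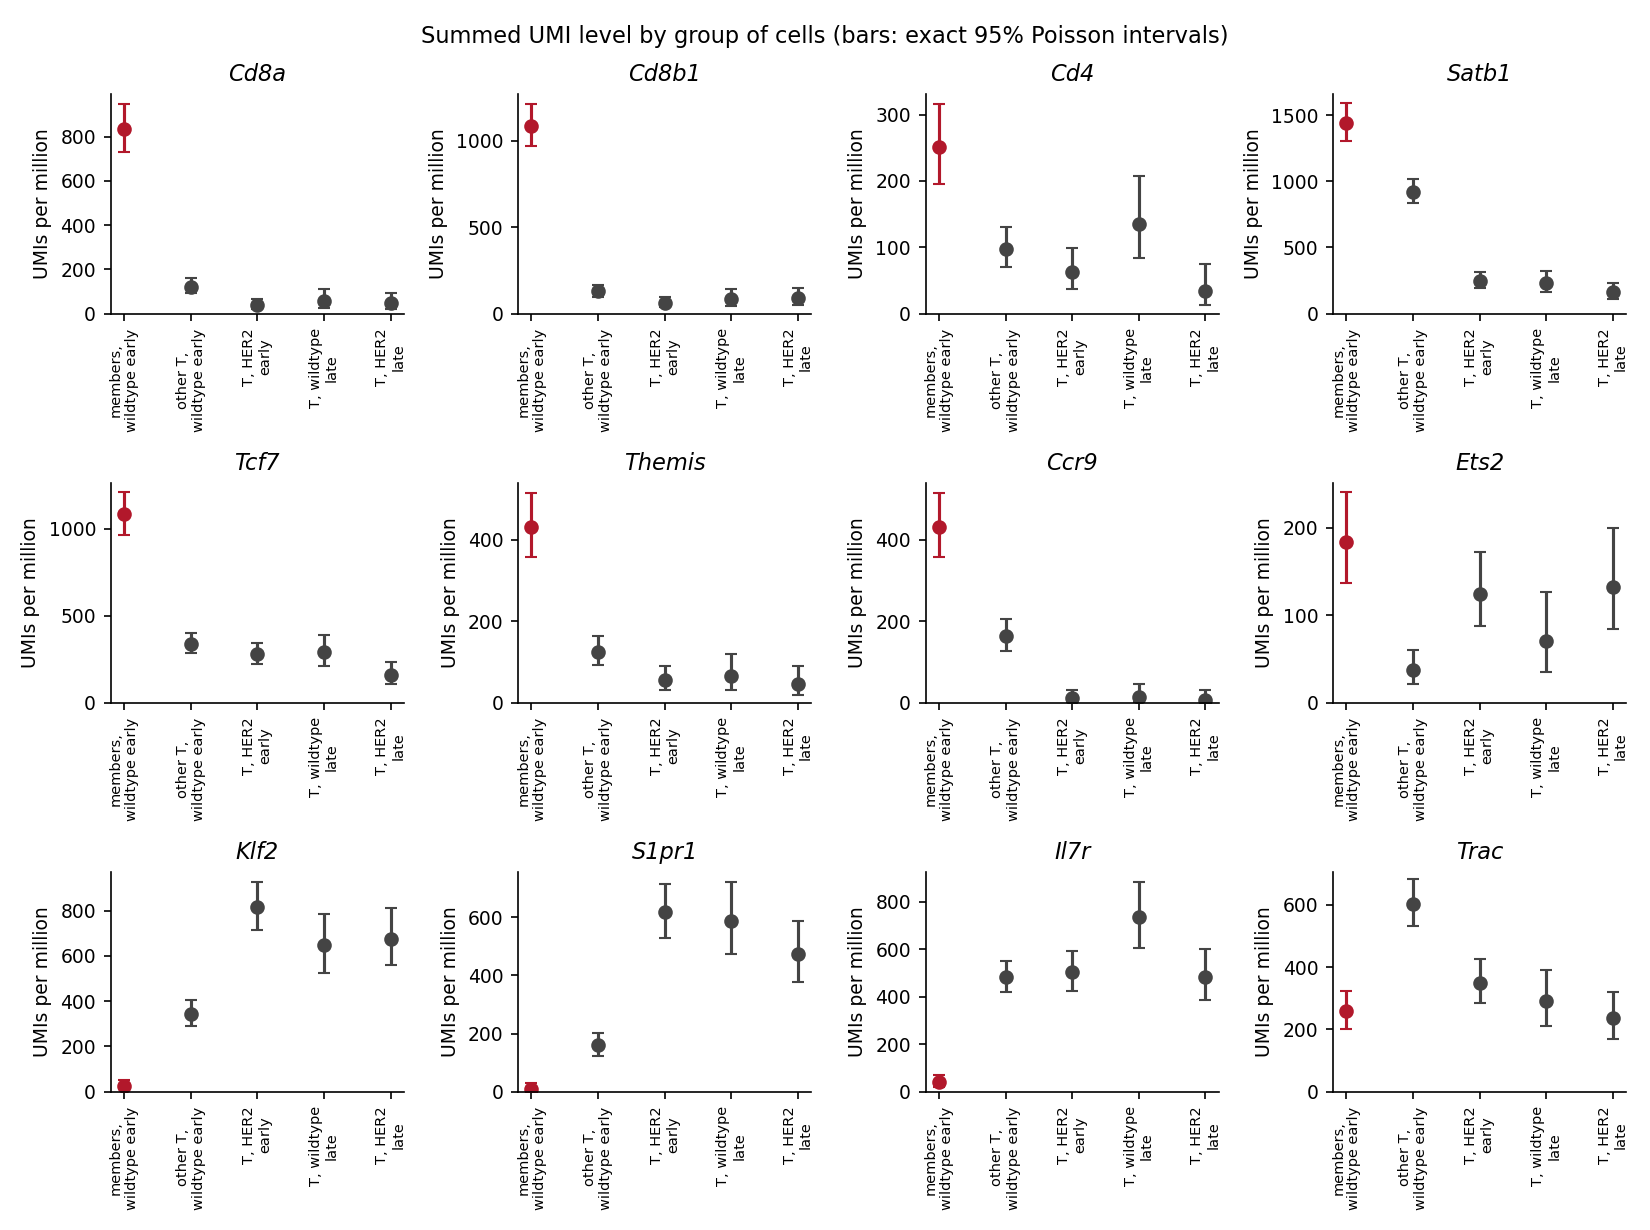
Summed CPM of 12 genes in members (red) and in the other T-lineage cells of each library (grey), with exact 95% Poisson intervals on counts. Cd8a, Cd8b1, Tcf7, Themis and Ccr9 were highest in members, Klf2, S1pr1 and Il7r lowest, and Trac in members was near the level of wildtype late and HER2 late.

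Across all genes, members were compared with the 92 other T-lineage cells of wildtype early at the 3668 genes with at least 50 CPM in either group. Of these, 598 (16.3%) were at least 2-fold higher in members and 378 (10.3%) at least 2-fold lower, with a median log2 ratio of 0.15. Since all genes come from the same cells that the rule picked, these are descriptions without a test. Of a list of 15 genes of the double-positive stage, 12 were measured. All 12 were at least 2-fold higher in members, beside 16.3% over all genes, with a median log2 ratio of 2.67. Of these, Endou, Ly6d and Mns1 had 0 UMIs in the other cells, and Ets2 was under 50 CPM there. They passed the 50 CPM limit only through the members, so that limit set their direction. The 3 genes below the 50 CPM limit were Aqp11, Spo11 and Cd1d1. Glcci1, named for its induction by glucocorticoids, was at 626 CPM against 82.9 CPM (log2 2.92, 2.39 to 3.48), though its 3′ end is shared with the gene model Gm45062. Themis, an adaptor needed in thymocyte selection, was at 431 against 124 CPM. Ccr9, the chemokine receptor of thymocytes and gut T cells, was at 431 against 164 CPM, and at 5.78 to 12.9 CPM in T-lineage cells of the other libraries. Ets2 was at 184 against 36.9 CPM, but at 125, 71.1 and 133 CPM in the T-lineage cells of HER2 early, wildtype late and HER2 late, so its gap to both HER2 libraries was under 2-fold. These 12 genes include Cd4, Cd8a and Cd8b1 and are not independent of the coreceptor results.

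The genes with the largest ratios by the naming rule came from a few families. Endou, an endoribonuclease on chromosome 15 (chr15:97711015-97731339), gave 101 UMIs in 41 members and 0 in the other T-lineage cells of wildtype early, which makes it at least 51.7-fold higher. It was at 357 CPM in members, and at 17.4, 0 and 0 CPM in the other libraries. A trio of non-classical class I genes of the major histocompatibility locus followed. H2-T3 (chr17:36185572-36190287), which encodes the thymus leukaemia antigen, gave 177 UMIs in 34 members against 2 UMIs (log2 7.09, 5.21 to 10.14). H2-Q1 (chr17:35320405-35325099) gave 193 UMIs in 46 members against 4 (log2 6.21, 4.83 to 8.10), and H2-Q2 gave 97 UMIs in 38 members against 3 (log2 5.63, 4.04 to 7.94). No close copy of these 3 genes was found among the 3′ ends of other genes. All 3 stood at 28.9 CPM or less in every other T-lineage group. Mns1, a gene of sperm flagella, gave 45 UMIs in 18 members and 0 in the other cells (at least 23.0-fold higher), with a 3′ end shared in part with Tex9. Ly6d, a surface protein of early lymphocytes, gave 58 UMIs in 11 members and 0 in the other cells (at least 29.7-fold higher), but 79.3% of its UMIs were in 3 cells. Cd209d, a lectin gene, was also named by the rule, with 41 UMIs in 1 member. The remaining names were Trdc and 7 genes of dividing cells. By contrast the classical class I genes were lower, with H2-K1 at 573 against 1325 CPM, H2-D1 at 1046 against 2458 CPM and B2m at 643 against 1548 CPM, the 3 of 7 measured class I genes past 2-fold. Over all genes 10.3% were past 2-fold lower. The class I count did not hold under every choice. Without the cells in cycle of both groups 0 of 7 were past 2-fold lower, with log2 ratios of -0.53 for H2-K1, -0.57 for H2-D1 and -0.44 for B2m, and with no C1q limit 0 of 7 were either. The class I genes gave 885 UMIs in members, and 52.2% of these lay in 3 cells.

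Factors that build the thymocyte programme were higher in part. Of 18 thymocyte transcription factors, 17 were measured, 5 were at least 2-fold higher and 3 at least 2-fold lower, beside 16.3% higher and 10.3% lower over all genes. Tcf7, a factor of T cell identity, was at 1082 CPM in members against 339 CPM in the other T-lineage cells of wildtype early, and was found in 56 of 57 members. Tcf12, which encodes the E protein HEB, was at 332 against 80.6 CPM. Myb was at 347 against 59.9 CPM and Sox4 at 329 against 73.7 CPM. The lower ones were Ikzf3 (46.0 against 99.1 CPM), Tox (42.4 against 118 CPM) and Runx3 (42.4 against 111 CPM), the last pair of which are linked to the choice of a single coreceptor. All 3 passed the 50 CPM limit only through the other cells, so that limit set their direction. Without the cells in cycle of both groups all 3 were under 2-fold, with log2 ratios of -0.53, -0.82 and -0.42. Zbtb7b, the factor of the Cd4 lineage, gave 1 UMI in the members. End joining seals the breaks made by the recombinase. Of 10 genes of this list 4 were measured and all 4 were at least 2-fold higher, beside 16.3% over all genes. Over 25 alternatives 2 to 5 were higher, of 2 to 9 measured. Xrcc6 (Ku70) was at 177 against 25.3 CPM and Lig4, the ligase of the pathway, at 67.2 against 9.22 CPM. Both passed the 50 CPM limit only through the members, so that limit set their direction. The chromatin proteins Hmgb1 (1351 against 426 CPM) and Hmgb2 (3666 against 627 CPM) aid the recombinase and are also high in dividing cells. Without the cells in cycle of both groups the log2 ratio of Hmgb1 was 0.70, under 2-fold.

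Of 14 signalling genes of the receptor 13 were measured, 2 were at least 2-fold higher (Themis, and Lat at 354 against 154 CPM) and 1 was lower (Fyn at 49.5 against 164 CPM), which is near the 16.3% and 10.3% over all genes. The kinase Lck was at 654 against 359 CPM, under 2-fold. Among 9 coreceptors and surface partners, Cd4, Cd8a and Cd8b1 were at least 2-fold higher, while Cd2 (113 against 417 CPM) and Cd5 (49.5 against 233 CPM) were lower. Fyn and Cd5 passed the 50 CPM limit only through the other cells, so that limit set their direction. Cd5 is known to rise with the strength of receptor signals in thymocytes. Of 12 genes of the earlier double-negative stage 4 were measured and 0 were higher, and Il2ra, its marker CD25, had 2 UMIs in 1 member.

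Genes of later T cells were lower. Of 10 genes that follow positive selection and receptor stimulation, 5 were measured (Cd69, Itm2a, Cd5, Cd53 and Bcl2). All 5 were at least 2-fold lower in members, beside 10.3% over all genes, with a median log2 ratio of -2.23. Cd69 and Cd5 passed the 50 CPM limit only through the other T-lineage cells, so that limit set their direction. Cd69, an early activation marker, was at 35.4 against 96.8 CPM. It was under 2-fold without the cells in cycle of both groups (log2 -0.94) and with no C1q limit (-0.50). The same held at mitochondrial limits of 5% (-0.77) and 20% (-0.86). Against HER2 early (-0.46) and HER2 late (-0.19) Cd69 was also under 2-fold, and against wildtype late it was past 2-fold lower. Bcl2, which protects from cell death, was at 77.8 against 376 CPM. The related survival gene Bcl2l1 encodes Bcl-xL and is used by double-positive thymocytes. It was higher, at 88.4 against 32.3 CPM, but passed the 50 CPM limit only through the members. This ratio was under 2-fold without the cells in cycle of both groups (log2 0.69) and at a mitochondrial limit of 5% (0.89). Bcl2l1 was also under 2-fold against wildtype late (0.60) and HER2 late (0.93), and past it against HER2 early. All 12 genes of the naive state and of exit from the thymus were measured. Of these, 10 were at least 2-fold lower, beside 10.3% over all genes, with a median log2 ratio of -2.77. Klf2, a factor of quiescence and exit, was at 24.8 CPM in members (7 UMIs in 4 cells), against 343 CPM in the other T-lineage cells of wildtype early and 815, 646 and 676 CPM in T-lineage cells of HER2 early, wildtype late and HER2 late. S1pr1, the receptor by which T cells leave the thymus, was at 10.6 CPM (3 UMIs in 2 cells), against 159, 618, 588 and 474 CPM. Il7r, the receptor for interleukin 7, was at 38.9 CPM, against 482, 503, 737 and 485 CPM. All 3 passed the 50 CPM limit only through the other cells, so that limit set their direction. For these 3 genes every other T-lineage group was far above the members. Those groups also held more RNA of endothelial genes, at 1087, 4388, 2714 and 3855 CPM in the same order, against 46.0 CPM in members. The part of endothelial RNA in the gaps of these 3 genes was not tested.

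Effector genes followed the same direction. Of 20 effector and memory genes 11 were measured, 0 were higher and 6 were at least 2-fold lower, and of 12 helper and regulatory genes 5 were measured and all 5 were lower. Ccl5, a chemokine of memory T cells and NK cells, had 2 UMIs in members (7.07 CPM) and 519 UMIs in the other T-lineage cells of wildtype early (1196 CPM, log2 -7.40, -10.45 to -5.54), though 58.4% of those were in 3 cells. Nkg7, a gene of cytotoxic granules, was 0 against 109 UMIs (at least 23.7-fold lower) and Tnfrsf4, a costimulatory receptor, 0 against 89 UMIs (at least 19.3-fold lower). Ccl5, Nkg7 and Tnfrsf4 passed the 50 CPM limit only through the other cells, so that limit set their direction. Gzma, a granzyme, was the exception in form, with 19 UMIs spread over 12 members (67.2 CPM) against 126 UMIs in 5 of the other cells (290 CPM). Its direction rests on cells with few T receptor UMIs. With that limit raised to 8 the other cells held none, and Gzma was higher in members, by at least 3.15 on the log2 scale. Ifi27l2a, an interferon-induced gene, had 13 UMIs in 4 members against 408 UMIs in 48 of the other cells (log2 -4.35, -5.28 to -3.56). Of 12 homing receptors, 8 were measured. Ccr9 and the chemokine receptor Cxcr4 (84.9 against 34.6 CPM) were higher, Cxcr4 not without the cells in cycle (log2 -0.20), and Ccr7, S1pr1, Cxcr6 and Itgb7 were lower.

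**Figure D4:**
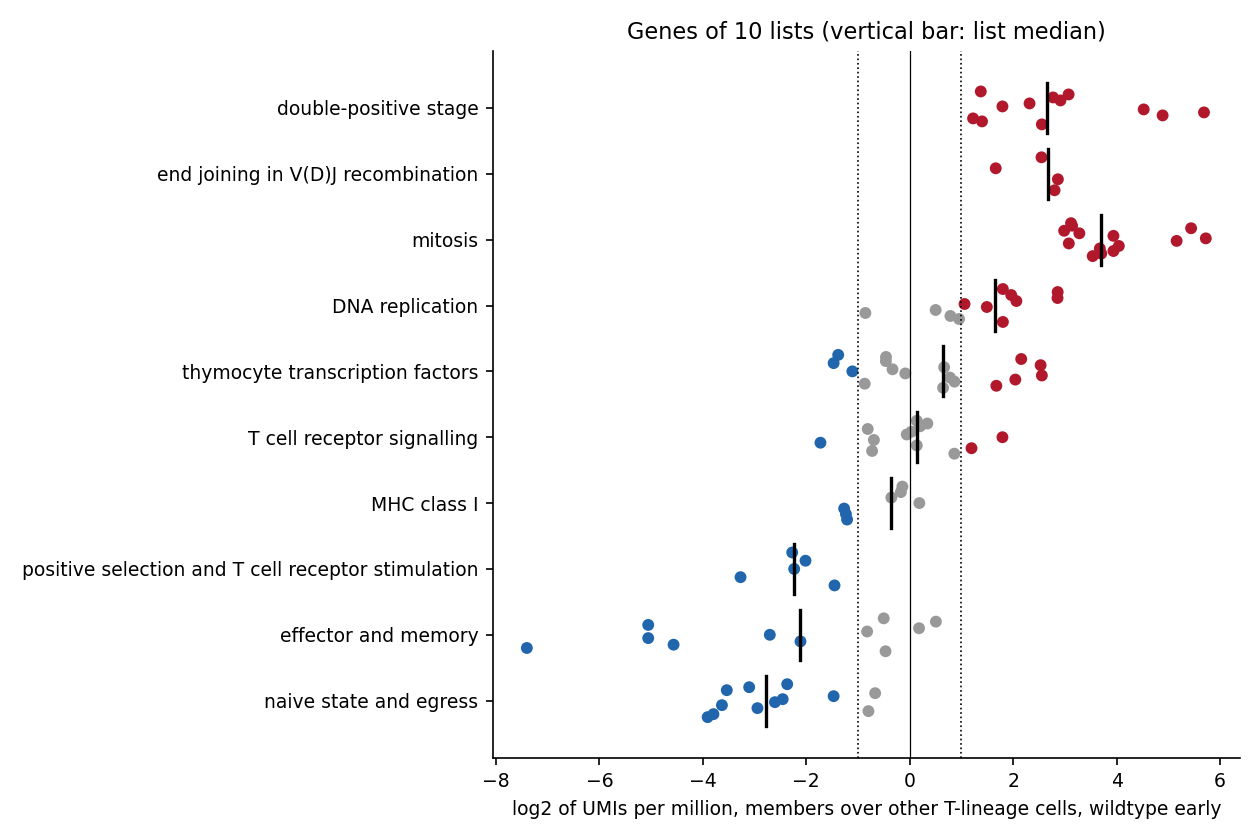
Log2 ratio of CPM, members over the other T-lineage cells of wildtype early, for the measured genes of 10 lists, with 1 point per gene, a vertical bar at each list's median and dotted lines at 2-fold. The double-positive, end joining and mitosis genes all lie to the right of 2-fold, and 10 of 12 genes of the naive state and exit lie to the left. Genes that passed the 50 CPM limit only through the members could only come out higher. Those that passed only through the other cells could only come out lower.

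Cell cycle genes were high in many members. All 14 measured genes of a list of 15 mitosis genes were at least 2-fold higher in members, with a median log2 ratio of 3.69. Of 12 measured DNA replication genes 8 were higher and 0 lower. Over all genes 16.3% were higher and 10.3% lower. The other cells held 123 UMIs of the 15 mitosis genes (283 CPM), 94.3% of them in 3 cells. Most of the 14, among them Cenpf, Nusap1 and Ube2c, passed the 50 CPM limit only through the members, so that limit set their direction. Mki67, the proliferation marker, gave 250 UMIs in 20 members against 33 UMIs in 4 of the other T-lineage cells, and Top2a, a topoisomerase of dividing cells, gave 306 UMIs in 21 members against 36 in 4. Cenpf (138 UMIs in 19 members against 4 UMIs in 1 cell), Nusap1 (85 UMIs in 18 members against 0, at least 43.5-fold higher) and Ube2c (140 UMIs in 20 members against 6 in 2 cells) act in mitosis and were named by the rule, as were Sgo1, Knl1, Pbk and the histone Hist1h1b. With every cell thinned to 1000 UMIs, 22 of 57 members held 3 or more UMIs of the 30 mitosis and replication genes (38.6%, 26.0 to 52.4%). The same held for 4 of 92 other T-lineage cells of wildtype early (4.35%), 1 of 61 in HER2 early, 3 of 48 in wildtype late and 1 of 28 in HER2 late, and for 18 of 1060 macrophage barcodes (1.70%). At full depth the shares were 27 of 57 members (47.4%) and 18 of 92 other cells (19.6%). The limit fell in a thin stretch of the distribution, with 3 members 1 UMI below it and 1 member at it.

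The 22 members in cycle differed from the other 35 in more than cell cycle genes. This division was made after the data were seen, and depth differed, with a median of 6184 UMIs per cell in the 22 and 1698 in the 35. It was read from 1 draw of thinning. At full depth 5 of the 35 also held 3 or more cell cycle list UMIs, and 97.3% of the mitosis UMIs of the 35 lay in 3 cells. At the 947 genes with at least 200 CPM in either class, 240 (25.3%) were at least 2-fold higher in the cells in cycle and 107 (11.3%) at least 2-fold lower, with a median log2 ratio of 0.27. Trac was at 71.5 CPM in the cells in cycle (11 UMIs in 8 cells) and 481 CPM in the others (62 UMIs in 26 cells). Trdc went the other way, at 403 CPM (62 UMIs in 15 cells) against 116 CPM (15 UMIs in 3 cells), a log2 ratio of 1.79 (0.96 to 2.71). Of the 22, 10 held Trdc without Trac, 3 Trac without Trdc, 5 both and 4 neither. Of the 35, 0 held Trdc alone, 23 Trac alone, 3 both and 9 neither. Alpha chain RNA was thus mainly in the 35 other members and delta constant RNA mainly in the 22 in cycle. The beta constant genes were high in both, at 6949 CPM in the 35 and 8621 CPM in the 22. Alpha variable genes (Trav) gave 5 UMIs in the 22 cells and 21 UMIs in the 35.

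The rule genes themselves split by class as well, as a description. Rag1 was at 500.3 CPM in the cells in cycle and 1342 CPM in the others (log2 -1.42, -1.83 to -1.03). Dntt was at 1065 against 752 CPM, and Ptcra at 10 against 1 UMIs. Of genes outside the rule, Cd8b1 was at 786 against 1443 CPM, while Cd8a was at 819 against 853 CPM. Ccr9 (214 against 690 CPM) was more than 2-fold lower in the cells in cycle, and Themis (305 against 582 CPM) fell just short. Myb, Cd247, Cd27 and Cd28 were also past 2-fold lower. Higher in the cells in cycle were H2-T3 (916 against 279 CPM), Ly6d (331 against 54.3 CPM) and Mns1 (247 against 54.3 CPM), and 17 of the 19 Gzma UMIs were there. Most Ly6d UMIs of the members lay in a few cells, as given above, so its ratio between the classes can rest on those cells. H2-K1 was at 221 against 993 CPM and H2-D1 at 403 against 1815 CPM. Both coreceptors together were found in 14 of the 22 and 24 of the 35. All 5 measured general myeloid genes were lower in the cells in cycle too. Without the members that held 10 or more myeloid UMIs, 18 and 30 cells remained, and the log2 ratio was -3.88 for Trac, 1.36 for Trdc (0.41 to 2.45), -1.95 for Rag1, -1.85 for H2-K1, -1.76 for H2-D1 and 2.02 for Ly6d. Dntt then stood level, at 1209 against 1230 CPM. Cd8a did not, at 829 against 1479 CPM in those cells (log2 -0.83, -1.26 to -0.41). Cd4 (-1.33), Cd8b1 (-1.29) and Themis (-1.52) were past 2-fold lower there, and H2-T3 fell to 1.02 (0.40 to 1.67).

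**Figure D5:**
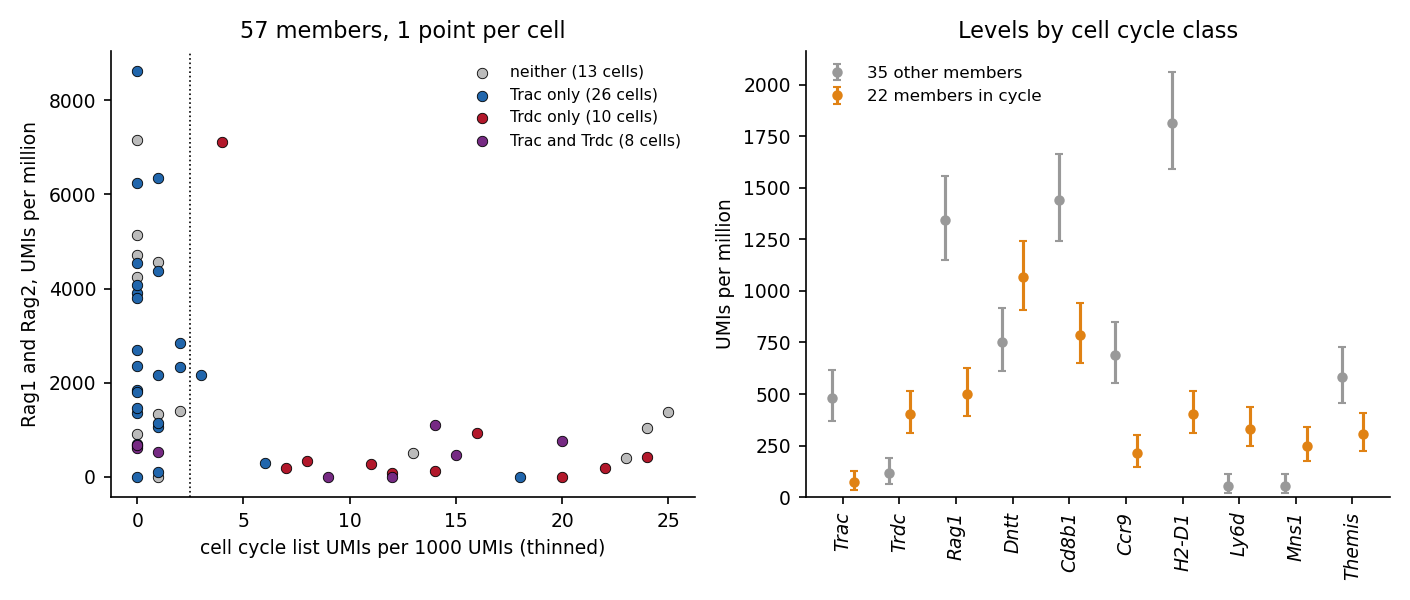
Left, Rag1 and Rag2 CPM in each of the 57 members against cell cycle list UMIs per 1000 UMIs, coloured by Trac and Trdc UMIs, with a dotted line at the limit. Right, CPM of 10 genes in the 22 members in cycle and the 35 others with exact 95% Poisson intervals. All 10 cells with Trdc alone lie to the right of the limit and 23 of the 26 with Trac alone lie to the left.

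Genes of other cell types were read beside these results. In members all but 1 of the 5 endothelial genes were at 0 (46.0 CPM in sum), against 1087 CPM in the other T-lineage cells of wildtype early and 4388, 2714 and 3855 CPM in T-lineage cells of HER2 early, wildtype late and HER2 late. Among the genes named as lower in members, Cldn5, Ramp2, Epas1, Tmem100, Emp2, Sparc, Cavin2, Adgrf5 and Igfbp7 are known from endothelium, lung epithelium or stroma and had 0 UMIs in members, at least 14.6 to 33.0-fold below. For Cldn5, 90.1% of the UMIs in the other cells lay in 3 cells. Mgp, a matrix protein, had 2 against 272 UMIs, all in 2 of the other cells. Ctla2a, a cysteine protease inhibitor, had 0 against 153 UMIs (at least 33.2-fold lower). The part of endothelial RNA in these ratios was not tested. The 7 general myeloid genes summed to 1671 UMIs in members (5908 CPM) and 1030 UMIs in the other cells (2373 CPM), with Lyz2 and Cst3 at least 2-fold higher of 5 measured, but 79.0% of the members' UMIs lay in 3 cells, 9 members with 10 or more held 94.3%, and 12 members had 0. Conventional dendritic cell genes (848 UMIs, 98% in 3 cells) and Cd74 (1694 UMIs, 98.8% in 3 cells) were as concentrated. Without the cells of both groups that held 10 or more general myeloid UMIs, 0 of 3 measured general myeloid genes were at least 2-fold higher in members, and 0 dendritic cell genes were left to measure.

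Of 11 B lineage genes 7 were at 0 in members, among them Cd79a and Pax5, and Ighm held 66 of the 72 UMIs, in 31 members. Ighm was higher in members than in the other T-lineage cells of wildtype early (log2 1.96, and 0.95 at a mitochondrial limit of 5%). Against T-lineage cells of wildtype late the log2 ratio was 0.78, and against HER2 late 3.01. Rag1, Rag2 and Dntt are also used by B cell precursors, and 3 members held a B lineage gene other than Ighm. Of 8 NK cell genes 7 were at 0, Gzma being the exception. Thymic epithelial genes gave 1 UMI, with 6 of 7 genes at 0, among them Foxn1, Psmb11 and Aire, so stromal RNA of the thymus was not detectable at this depth. Erythroid genes gave 2 UMIs, neutrophil genes 1 and fibroblast genes 2. Of 15 immediate early and stress genes 11 were measured, with Fos higher (81.3 against 20.7 CPM), Ier2 lower (28.3 against 78.3 CPM) and a median log2 ratio of -0.03. Fos passed the 50 CPM limit only through the members and Ier2 only through the other cells.

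The members were finally set against the T-lineage cells of each other library, where library, genotype and age differ as well and cannot be told apart. Against HER2 early 3973 genes were measured, of which 883 (22.2%) were at least 2-fold higher in members and 796 (20%) lower. Against wildtype late the counts were 966 (23.2%) and 936 (22.5%) of 4161 genes, and against HER2 late 947 (23.1%) and 875 (21.3%) of 4106. These comparisons share the members, so they do not repeat each other. Of the 12 double-positive genes measured, 11 were at least 2-fold higher against each library, all but Ets2 against both HER2 libraries and all but Cd4 against wildtype late. Mitosis genes were higher in 14 of 14 against HER2 early and HER2 late and in 13 of 14 against wildtype late. Genes of the naive state and exit were lower in 10 of 12, 11 of 12 and 9 of 11. Thymocyte transcription factors were higher in 9 of 15, 9 of 16 and 10 of 15, and Satb1, Bcl11b, Tcf3 and Runx1 were among them in all 3.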

How the data were processed

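Per the file headers and the labels, the authors deposited 1 matrix of raw UMI counts per library, made with Cell Ranger (5.0.1 per the submitters' processing notes, while the matrix headers name an earlier version) on mm10. Everything else was computed from these deposited counts with Python 3.11, numpy 2.4.6, scipy 1.17.1, pandas 2.3.3 and scanpy 1.11.5. UMIs were summed over the cells of a group and expressed as CPM of that group's total. Folds are CPM ratios with exact conditional binomial intervals, with a count of 0 set at a floor of 3 counts over the group and no ratio where both counts were at or under it. Shares have Clopper-Pearson intervals. No test was made, because each group is 1 library and cells are not replicates. HER2 could not be compared with wildtype within the members, since HER2 early held none. Genes needed 50 CPM in either group, or 200 CPM between classes of members. A gene that passed through only the first group of a ratio could only come out higher, and through only the second only lower. Named genes are the 15 highest and 15 lowest by the interval bound nearest to 0. Left out were the genes of the rule, mitochondrial, ribosomal protein, haemoglobin, immunoglobulin, unnamed and Y-linked genes, and Xist. The members and gene lists were chosen with earlier results of these data known. Doublets were not removed. A few list members are counted but not reported by name here. PCR copies are collapsed by UMIs, and depth per library is given above. The calculations were tested on simulated data. Alternatives for filters, limits, thinning and scaling are given at the end.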

Additional observations from a re-analysis of the deposited data

How the results depend on the processing

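No paired analysis was possible because each group is 1 library and the labels give no replicate numbers. The 57 members against 92 other T-lineage cells gave 598 genes at least 2-fold higher and 378 lower. With a limit of 20 CPM these became 1251 and 969, with 200 CPM 138 and 60, and with a total without mitochondrial, ribosomal protein and Gm42418 UMIs the lower count became 706. The next alternatives were chosen after seeing the data. Against T-lineage cells of wildtype late the counts were 966 and 936, against HER2 late 947 and 875, and against HER2 early 796 were lower. With no C1q limit they were 320 and 132, and without cells of 10 or more general myeloid UMIs 970 were higher.

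With no C1q limit, members were 54.0% of T-lineage cells and 2.73% of kept barcodes of wildtype early, and 3 appeared in HER2 early and 4 in wildtype late. With no macrophage limit 1 appeared in wildtype late. The share of kept barcodes was 0.676% at 2000 UMIs and 0.769% without cells of 2 or more B lineage UMIs. The expected share in cycle, 38.4%, became 63.3% at 2000 UMIs, 67.01% thinned to 2000 and 25.5% with no C1q limit. The expected share with Cd4 and Cd8a UMIs, 25.9%, became 13.5% at 2000 UMIs, 63.2% without thinning and 15.03% with no C1q limit.

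Log2 ratios turned sign for Cd74 (-1.42), Cst3 (-0.082) and Lyz2 (-0.44) without the myeloid cells, for Gzma (3.15) at 8 T receptor UMIs and for Cxcr4 (-0.20) without cells in cycle. They also turned for Trac (0.12), Cd2 (0.12), Cd5 (0.29) and Tox (0.29) against HER2 late, for Tox (0.39) against wildtype late and for Ikzf3 (0.27) against HER2 early. Of the 15 higher and 15 lower genes of the naming rule, Mgp (-0.96 with no C1q limit) and Igfbp7 (-0.74 without the myeloid cells) had a value under 2-fold, among the alternatives with enough counts for a ratio. Over 25 alternatives the double-positive list had 8 to 14 genes higher of 8 to 15 measured, with 8 of 8 at 200 CPM and 14 of 15 at 20 CPM, where 1 was lower. One was also lower under the total without mitochondrial and ribosomal protein UMIs. Naive and exit genes had 6 to 11 lower of 6 to 12 measured, with 6 of 6 at 200 CPM. Class I genes had 0 lower without cells in cycle and with no C1q limit, and 1 at a mitochondrial limit of 5%. Without cells in cycle, 0 of 3 measured DNA replication genes were higher. The causes were not tested. With 57 cells and 282857 UMIs, genes under 50 CPM are not resolved, and a single library cannot separate mouse, sort and group.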
